A study of Mus musculus with 28 samples.

Results

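The genes described here are 10 ion channel and exchanger genes of sperm: Catsper1, Catsper2, Catsper3, Catsper4, Catsperb, Catsperd, Catsperg1, Slc9c1, Kcnu1 and Hvcn1. They were taken by name from 17923 genes with a transcription start that the peak tables list under a single symbol, and all 10 had such a start. Their promoters were followed through spermatogenesis with acetylated lysine 27 of histone H3 (H3K27ac), a mark of active promoters and enhancers. The study mapped the mark by ChIPmentation, an immunoprecipitation of sonicated chromatin in which a transposase adds the sequencing adapters on the beads, in testis germ cells of C57BL/6 mice. The 12 H3K27ac libraries formed 6 groups of 2: Thy1+ and c-Kit+ spermatogonia of wild-type (WT) mice, the same cells of Scml2-KO mice, and, of Scml2-KO mice alone, meiotic cells in pachytene (PS) and the round spermatids (RS) that follow. Scml2 encodes a germline Polycomb protein, and KO below means its deletion. Spermatogonia were taken from juveniles on postnatal day 7, and PS and RS from adults, so cell stage cannot be told apart from age, and every PS and RS value below is from KO cells. H3K27ac in WT PS and WT RS was not analysed here. The other 16 libraries were inputs, that is, chromatin without immunoprecipitation.

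CatSper is the calcium channel of the sperm tail. Its pore is built from the subunits CATSPER1 to CATSPER4, which sit among auxiliary subunits such as CATSPERB, CATSPERD and CATSPERG, and its current drives the whip-like beat called hyperactivation. Kcnu1 encodes SLO3, the main potassium channel of mouse sperm, which sets the membrane voltage. Slc9c1 encodes a sperm-specific sodium-proton exchanger, and Hvcn1 a voltage-gated proton channel that also works in phagocytes and B cells. The CatSper, SLO3 and exchanger proteins act in mature sperm, and their genes are transcribed during and after meiosis.

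Promoter sequences from RefSeq (GRCm38.p6) cover 250 bases before to 50 after a start, and matched 7 of the 10 genes, at 9 starts. Catsper1, Kcnu1 and Hvcn1 had no matching sequence. The following were chosen because their genes had the mark at different stages: Catsper2 in every library, Catsperd with the mark short of its start in spermatogonia, and Catsperb and Catsper4 in PS and RS alone. Each is written 5′ to 3′ in the sense of the gene, with every CG dinucleotide in capitals.
Catsper2, chr2:121413743-121414042, minus strand: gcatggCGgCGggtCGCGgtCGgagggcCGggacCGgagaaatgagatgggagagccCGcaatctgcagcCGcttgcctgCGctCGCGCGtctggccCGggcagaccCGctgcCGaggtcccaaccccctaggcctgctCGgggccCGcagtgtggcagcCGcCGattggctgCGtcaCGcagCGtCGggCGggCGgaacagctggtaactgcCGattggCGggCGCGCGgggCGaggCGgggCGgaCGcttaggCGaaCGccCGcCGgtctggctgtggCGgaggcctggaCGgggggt
Catsperd, upstream start, chr17:56626797-56627096, plus strand: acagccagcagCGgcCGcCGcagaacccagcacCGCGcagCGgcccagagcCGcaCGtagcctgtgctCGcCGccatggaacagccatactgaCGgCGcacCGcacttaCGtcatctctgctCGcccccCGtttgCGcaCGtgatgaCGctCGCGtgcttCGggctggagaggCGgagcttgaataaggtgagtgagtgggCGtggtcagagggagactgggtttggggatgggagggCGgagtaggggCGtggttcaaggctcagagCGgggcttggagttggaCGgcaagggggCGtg
Catsperd, listed start, chr17:56627893-56628192, plus strand: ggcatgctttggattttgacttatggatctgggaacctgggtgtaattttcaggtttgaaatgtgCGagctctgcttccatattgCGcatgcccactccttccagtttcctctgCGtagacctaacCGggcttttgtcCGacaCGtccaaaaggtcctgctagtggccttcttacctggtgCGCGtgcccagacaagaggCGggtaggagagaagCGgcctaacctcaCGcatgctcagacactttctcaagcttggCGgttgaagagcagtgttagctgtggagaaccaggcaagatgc
Catsperb, chr12:101404423-101404722, plus strand: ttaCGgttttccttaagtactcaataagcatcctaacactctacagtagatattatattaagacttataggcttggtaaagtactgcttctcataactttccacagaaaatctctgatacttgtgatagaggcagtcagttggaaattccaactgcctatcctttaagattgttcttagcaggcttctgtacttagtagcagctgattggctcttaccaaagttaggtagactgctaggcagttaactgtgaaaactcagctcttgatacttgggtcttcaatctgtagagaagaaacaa
Catsper4, chr4:134227334-134227633, minus strand: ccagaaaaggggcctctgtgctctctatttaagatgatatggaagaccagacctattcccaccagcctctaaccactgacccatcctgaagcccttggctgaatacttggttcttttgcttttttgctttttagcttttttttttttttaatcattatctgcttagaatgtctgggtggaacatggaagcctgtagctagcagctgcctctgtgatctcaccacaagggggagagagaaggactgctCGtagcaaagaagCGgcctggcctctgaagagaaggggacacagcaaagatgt
The Catsper2 stretch held 41 CG dinucleotides, with 74.7% G or C. The Catsperb stretch held 1 and the Catsper4 stretch 2. Catsper3 and Slc9c1 had 3 each, and the Catsperg1 start had 8. Catsperd had 12 at the start that the peak tables list and 29 at a second RefSeq start that lies 1096 bp upstream of it. The median over all 32851 promoters of this length was 7. Among genes with a matched sequence, those with a promoter peak in all 12 libraries had a median of 23 (5042 genes), and those with one in all 4 adult libraries and in no spermatogonial library a median of 6 (596 genes). Short motifs were searched on both strands. AACNGT, the core bound by MYB proteins, occurred in 26.1% of all promoters, at 2 places in Catsperb and at 1 in Slc9c1 and Catsperg1. TGACG, the core of cyclic AMP response elements, occurred in 20.8% of all promoters and in Catsper2 and the upstream Catsperd start. TATAAA was present in 13.6% of all promoters and in Catsperg1, and GTTGCC, bound by RFX proteins, in 12.5% and in none of the 9. A match is a run of letters and not a measured binding site.

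The libraries differed in size. The H3K27ac libraries held 17877 to 73316 peaks, with 63322 to 73316 in the 4 adult ones, and the inputs 359 to 1192. A promoter peak here is a peak within 1 kb of a listed start, and its level is the deposited fold enrichment, the signal height at the highest summit of the peak over a background height fixed for the library. The lowest fold enrichment called was between 3.05 and 3.84 in the H3K27ac libraries. A promoter peak was present at 55.5% to 68.0% of all genes in the spermatogonial libraries, at 72.2% to 76.2% in the adult libraries and at 0.0725% to 0.145% in the inputs. Markers of the adult cells were marked more often there than in spermatogonia, but their calls did not set PS apart from RS. All 6 pachytene markers (among them Piwil1 and Sycp3) were marked in every adult library and 2 to 4 of them in the spermatogonial ones. All 6 spermatid markers with a listed start (among them Prm1 and Tnp1) were marked in every adult library, PS included. At most 1 of them was marked in a spermatogonial library. Markers of spermatogonia did not set these cells apart. The summed fold enrichment of the 5 markers of undifferentiated cells was 8.16 to 39.5 in spermatogonia, 53.0 and 52.8 in PS and 34.4 and 24.9 in RS, with Gfra1 marked in 1 of 12 libraries (Thy1+ KO replicate 1), and that of the 4 markers of differentiating cells was 0 to 16.6, 37.8 and 30.4, and 28.2 and 21.1. Of markers of somatic cells, the 5 of Sertoli cells with a listed start were all marked in both PS libraries, with sums of 45.4 and 59.2 against 9.59 to 27.4 in spermatogonia and 16.8 and 13.5 in RS. The sums of the 5 Leydig markers were 22.5 and 25.1 in PS, 0 to 16.6 in spermatogonia and 4.30 and 5.41 in RS, with Cyp17a1 and Hsd3b1 marked in no library. The 4 peritubular markers summed to 0 to 26.3 in spermatogonia and 3.79 to 8.21 in adult cells. Levels are from bulk cells, in which fewer marked cells and less of the mark per cell cannot be told apart.

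The tables listed 206 peaks under the channel genes in the H3K27ac libraries, of 471458 in all. The adult libraries held 31 to 40 of these peaks each and the spermatogonial libraries 4 to 15. Inputs held 2, upstream of Catsper1 and in an intron of Kcnu1, both in PS WT libraries, and 0 at a promoter in all 16. Between 8 and 10 of the 10 genes had a promoter peak in each adult library, and between 2 and 4 in each spermatogonial library. The genes split into 3 patterns. In the first, 6 were marked in adult cells and in no spermatogonial library (Catsper1, Catsper3, Catsper4, Catsperb, Kcnu1 and Slc9c1). Catsperg1 was nearly so at its listed start alone, since a region 1296 bp into the gene was marked in 7 spermatogonial libraries. Catsper2 and Catsperd were marked in all 12 libraries, although the Catsperd peaks ended short of its start in spermatogonia. Hvcn1 was marked mostly in spermatogonia. Of all genes, 70.9% had a promoter peak in some spermatogonial library against 4 of these 10, 29.1% had none there, and 8.06% had none there but one in at least 3 adult libraries, against 6 of these 10. A promoter peak in all 4 adult libraries was found for 8 of the 10, where the share over all genes was 67.1%, and one in all 12 libraries for 2, where it was 48.8%. Because the genes were chosen with earlier results known, these counts describe them and were not tested.

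**Figure D1:**
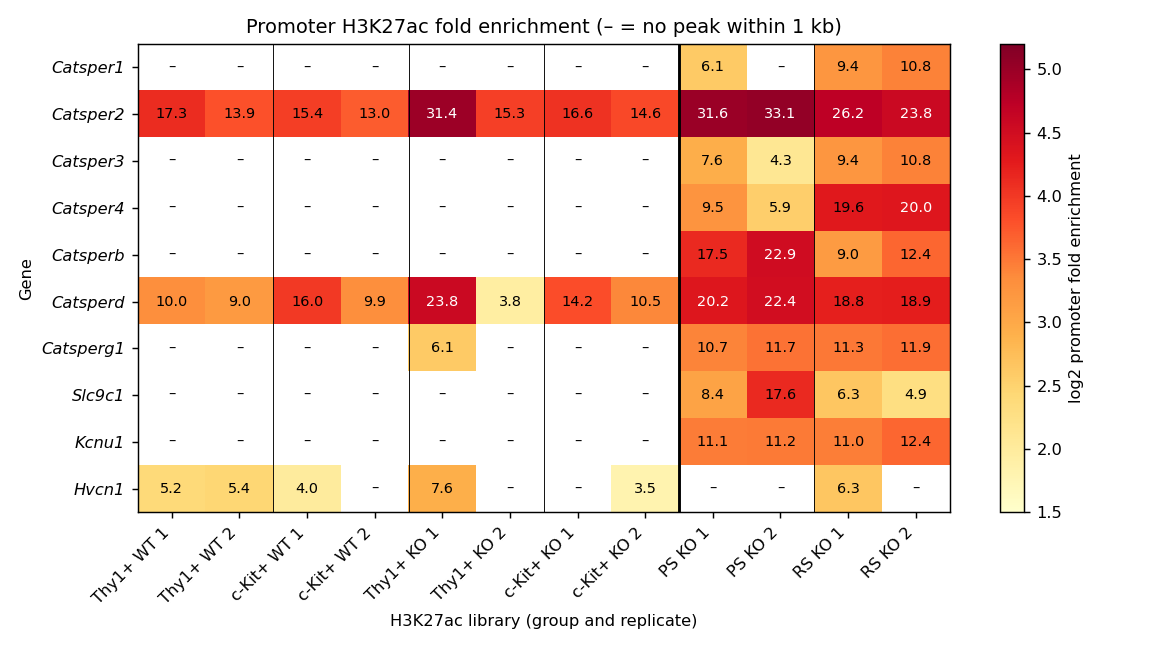
Promoter fold enrichment of the 10 genes (rows) in the 12 H3K27ac libraries (columns, with replicate number); colour gives log2 fold enrichment, the printed value is linear, and a dash marks a library with no peak within 1 kb of the start. The thick line separates the 8 spermatogonial from the 4 adult libraries, and to its left Catsper1, Catsper3, Catsper4, Catsperb, Slc9c1 and Kcnu1 hold dashes in all 8 columns.

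Among the pore subunits, Catsper1 (chr19:5335741-5344153, plus strand) had a promoter fold enrichment of 6.10 in PS replicate 1, no peak in PS replicate 2, and 9.39 and 10.8 in RS. Catsper3 (chr13:55784579-55809000, plus strand) stood at 7.63 and 4.27 in PS and at 9.39 and 10.8 in RS. Catsper4 (chr4:134211968-134227383, minus strand) stood at 9.53 and 5.86 in PS and at 19.6 and 20.0 in RS. For these 3 genes PS replicate 1 was above PS replicate 2, and for Catsper3 and Catsper4 both RS values were above both PS values. The mean of Catsper4 was 7.70 ± 2.59 (SD, n = 2) in PS and 19.8 ± 0.324 (SD, n = 2) in RS, and its highest promoter peak lengthened from a mean of 1519 bp to 3671.5 bp. The peak of Catsper3 was in pieces in PS, with a mean length of 337.5 bp for the highest, and averaged 1260 bp in RS.

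Catsperb (chr12:101404673-101626009, plus strand), the gene of an auxiliary subunit, ran the other way. Its promoter stood at 17.5 and 22.9 in PS and at 9.00 and 12.4 in RS, so that both RS values lay below both PS values. The mean length of its peak was 1418.5 bp in PS and 795 bp in RS. Slc9c1 (chr16:45535266-45607001, plus strand) was alike in direction, at 8.39 and 17.6 in PS and 6.26 and 4.87 in RS, with mean lengths of 1029.5 bp and 540 bp. For both genes PS replicate 2 was above PS replicate 1, opposite to Catsper1, Catsper3 and Catsper4. Over all promoters called in the 4 adult libraries, 63.4% had both RS values below both PS values and 7.74% had them above. Of the 8 channel genes called there, 4 were below (Catsper2, Catsperb, Catsperd and Slc9c1) and 2 above (Catsper3 and Catsper4).

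Kcnu1 (chr8:25849623-25937934, plus strand) stood at 11.1 and 11.2 in PS and at 11.0 and 12.4 in RS. Catsperg1 (chr7:29181532-29214033, minus strand) stood at 10.7 and 11.7 in PS and at 11.3 and 11.9 in RS. For both genes the PS and RS values lay within a narrow range. The Kcnu1 values of PS and of RS replicate 2 came from summits 1096 to 2005 bp upstream of its start. Summits within 1 kb of that start stood at 7.63 and 6.93 in PS and at 11.0 and 9.20 in RS. By these, both RS values were above both PS values. The Catsperg1 promoter was also called in 1 spermatogonial library, Thy1+ KO replicate 1, at 6.08. Catsperg1 has a close copy, Catsperg2, whose reads may be shared with it, so both values are uncertain. Catsperg2 was marked at 13.0 and 16.5 in PS and 12.9 and 9.20 in RS and in no spermatogonial library.

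Catsper2 (chr2:121394355-121413792, minus strand) shares its promoter with Pdia3, an endoplasmic reticulum folding enzyme gene that starts 110 bp away on the other strand, and the peak is listed under both. It stood at 17.3 and 13.9 in Thy1+ WT, 15.4 and 13.0 in c-Kit+ WT, 31.4 and 15.3 in Thy1+ KO, 16.6 and 14.6 in c-Kit+ KO, 31.6 and 33.1 in PS and 26.2 and 23.8 in RS. Called promoters in general stood higher in PS, with medians of 8.06 to 15.2 in the spermatogonial libraries and 16.4 and 17.6 in PS. Among the called promoters of its library, Catsper2 ranked at percentile 81.4 to 95.0 in spermatogonia. Its rank was 94.2 and 91.1 in PS and 89.2 and 89.8 in RS. The raw values are therefore no measure of a gain at Catsper2. The tallest summit on the Catsper2 side was 0.565 to 1 times that on the Pdia3 side in spermatogonia, 1.15 and 1 times in PS and 0.955 and 0.909 times in RS. The peak covered the Catsper2 start in all 12 libraries, so the mark at this start cannot be assigned to either gene.

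Catsperd (chr17:56628143-56664456, plus strand) lies 1240 bp from the start of Lonp1, a mitochondrial protease gene on the other strand, and its promoter peaks are listed under both. The level stood at 9.96 and 9.05 in Thy1+ WT, 16.0 and 9.92 in c-Kit+ WT, 23.8 and 3.84 in Thy1+ KO, 14.2 and 10.5 in c-Kit+ KO, 20.2 and 22.4 in PS and 18.8 and 18.9 in RS. The spermatogonial and adult values overlapped through Thy1+ KO replicate 1. In Thy1+ KO replicate 2 the low value is that of a small separate peak, and the Lonp1 promoter stood at 12.2 there. In every other library the level was that of the Lonp1 promoter, from a summit 1182 to 1683 bp upstream of the Catsperd start. Summits within 1 kb of that start were absent or at 3.84 to 6.58 in spermatogonia. They stood at 14.9 and 17.1 in PS and at 12.1 and 5.95 in RS. The extent of the peak differed too. In all 8 spermatogonial libraries it ended 281 to 981 bp before the listed Catsperd start. In the 4 adult libraries it ran 406 to 718 bp past it. The peak of Thy1+ WT replicate 1, at 981 bp and 9.96, was the one nearest to the edge of the 1 kb window. The nearest peak outside the window for any of the genes began 1116 bp from the Catsper1 start, at 4.30. The upstream RefSeq start of Catsperd, whose sequence is printed above with 29 CG dinucleotides, lies on the spermatogonial side of this border. That printed stretch also holds the Lonp1 start, at 56626903, so its sequence and mark cannot be assigned to either gene.

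Kcnu1 has a neighbour in Ash2l, a histone methyltransferase subunit gene that starts 1953 bp away on the other strand. Unlike the Lonp1 start, this Ash2l start had no peak within 1 kb in any spermatogonial library. The Kcnu1 start was covered in the 4 adult libraries alone. In PS a peak of its own lay over the start, with highest summits of 7.63 and 6.40, beside an Ash2l peak of 11.1 and 11.2 that ended 421 and 555 bp short of it. In RS the stretch was 1 merged peak listed under both genes.

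**Figure D2:**
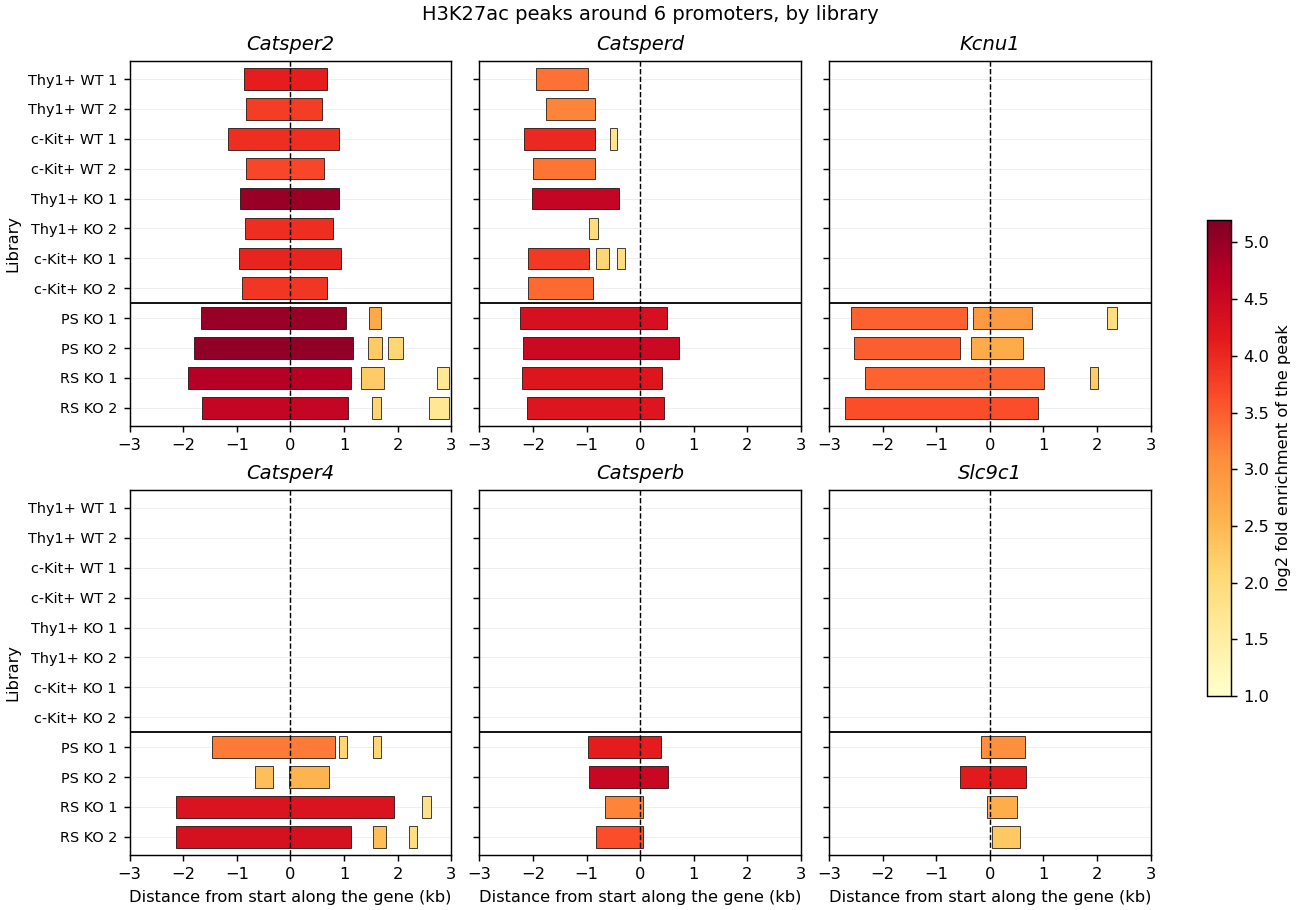
Peaks listed under 6 of the genes, drawn by distance from the start along the gene (kb, dashed line at the start) in each of the 12 H3K27ac libraries; colour gives the log2 fold enrichment of the peak's highest summit. Catsperd peaks end before the start in the 8 spermatogonial libraries and cross it in the 4 adult ones, and Catsper4 peaks are longest in RS.

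Hvcn1 (starts at 122209737 and 122210298 of chromosome 5, plus strand, to 122242297) was the exception. Its promoter stood at 5.24 and 5.43 in Thy1+ WT, and at 3.99 in c-Kit+ WT replicate 1, 7.59 in Thy1+ KO replicate 1 and 3.50 in c-Kit+ KO replicate 2, with no peak in the other 3 spermatogonial libraries. It had no promoter peak in either PS library and 1 in RS replicate 1, at 6.26. These levels are close to the lowest that could be called. Of 6 leukocyte markers 3 had a listed start (Ptprc, Csf1r and Cd68), and their summed fold enrichment was 0 in the 4 WT libraries, 0 to 10.6 in KO spermatogonia, 9.15 and 4.80 in PS and 33.2 and 26.0 in RS. The part of such cells in the Hvcn1 values was not tested.

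The change from spermatogonia to adult cells was tested in the 8 KO libraries with limma on log2 fold enrichment, after setting uncalled libraries at their lowest value and centring each library on promoters called in all 8. Of 14259 promoters tested 38.4% passed at an adjusted p under 0.05: 2070 (14.5%) were higher and 3403 (23.9%) lower in adult cells, and the median change was -0.11. Among the 10 genes 4 passed as higher and 1 as lower, with a median change of 0.46. With stricter peaks (−log10 q of at least 5) the median was 0.01, Catsperb was the only one of the 4 that still rose (0.68, adjusted p = 0.020), and Catsper4 (0.42, adjusted p = 0.13), Catsperg1 (0.30, adjusted p = 0.18) and Kcnu1 (0.33, adjusted p = 0.18) did not pass. Catsperb rose by 1.34 on the log2 scale (SE 0.24, adjusted p = 0.0022). Catsper4 rose by 1.08 (SE 0.24, adjusted p = 0.007), Kcnu1 by 0.99 (SE 0.21, adjusted p = 0.0058) and Catsperg1 by 0.80 (SE 0.16, adjusted p = 0.0041). The spermatogonial values of Catsperb, Catsper4 and Kcnu1 were all at the lowest level, and that of Catsperg1 was above it in Thy1+ KO replicate 1 alone. Only their adult libraries brought Catsperb, Catsper4 and Kcnu1 into the fit. The sizes, SE and adjusted p therefore depend on that setting, and are no measured folds or measured spread of these promoters. Catsper1 (0.22), Catsper3 (0.40), Slc9c1 (0.51), Catsperd (0.20) and Catsper2 (-0.07) did not pass, with adjusted p between 0.14 and 0.71. Hvcn1 fell by 0.89 (SE 0.19, adjusted p = 0.0063), but its change was 0 (adjusted p = 1) with 1 common lowest value for all libraries and -0.19 (adjusted p = 0.55) without centring. Scaling set much of the picture: without centring 7350 promoters (51.5%) were higher and 313 lower, the median of all was 0.59, and 8 of the 10 genes passed as higher, all but Catsperd and Hvcn1. With quantile normalization 2879 (20.2%) were higher and 3275 lower, and Catsper1 (0.55), Catsper3 (0.66) and Slc9c1 (0.65) passed beside the first 4. The Kcnu1 call was lost, with a change of -0.23 (adjusted p = 0.43), when its peaks shared with Ash2l were left out. Kcnu1 then had no peak in RS, so RS was at the lowest value and this change is no measure of the mark at its start. With only summits within the window Kcnu1 still passed as higher. The Catsperg1 call was lost, at -0.13 (adjusted p = 0.56), when a peak counted only if its highest summit lay within 1 kb.

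From c-Kit+ KO spermatogonia to PS 25.1% of promoters passed, 956 (6.7%) of them higher and 2621 (18.4%) lower, with a median of -0.16. Catsperb was the gene that rose among the 10 in limma, by 1.42 (SE 0.33, adjusted p = 0.015). It had no promoter peak in c-Kit+ KO cells, so its c-Kit+ values were the libraries' lowest. With 1 common lowest value it did not pass (1.14, adjusted p = 0.060). Hvcn1 had a change of -1.26 (SE 0.27, adjusted p = 0.012), but it was uncalled in 3 of the 4 libraries compared and at the lowest value called in the fourth, c-Kit+ KO replicate 2, so this value is a difference between the libraries' lowest values and says nothing of Hvcn1. It was 0 (adjusted p = 1) with 1 common lowest value. Without centring 63.7% of all promoters were higher in PS, with 6 of the 10 genes (Catsper2, Catsper4, Catsperb, Catsperg1, Kcnu1 and Slc9c1), and with quantile normalization 12.4% were, with 4 (Catsperb, Catsperg1, Kcnu1 and Slc9c1). With stricter peaks 735 of 13092 promoters were higher in PS and 3222 lower. There 0 of the 10 genes rose, and Catsper1, Catsper3 and Hvcn1 passed as lower in limma. None of these had a promoter peak this strict in c-Kit+ KO cells, so their c-Kit+ values were the libraries' lowest. PS replicate 1 did have such a peak at Catsper1 and Catsper3, so these calls say nothing of a loss of the mark. Sertoli and Leydig marker sums were also higher in PS than in spermatogonia and RS, and their part in the changes into and out of PS was not tested. Leaving out PS replicate 2 or c-Kit+ KO replicate 2 removed both calls, and leaving out c-Kit+ KO replicate 1 that of Catsperb.

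From PS to RS 3.01% of promoters passed in the same fit, 327 (2.29%) higher and 102 (0.715%) lower. Catsper4 rose by 1.77 (SE 0.34, adjusted p = 0.033). Catsper1 (1.55, SE 0.38, adjusted p = 0.058) and Catsper3 (1.18, SE 0.37, adjusted p = 0.10) did not pass, although Catsper1 passed in 8 of 18 alternatives and Catsper3 in 4, and Slc9c1 (-0.78, adjusted p = 0.30) and Catsperb (-0.56, adjusted p = 0.44) did not either. Kcnu1 (0.43, SE 0.30) and Catsperg1 (0.42, SE 0.22) did not pass. The call on Catsper4 was lost when c-Kit+ KO replicate 1 or 2, PS replicate 2, or RS replicate 1 or 2 was left out. The 2 PS libraries differed in spermatid markers: the summed fold enrichment of the 6 was 102 in PS replicate 1 and 44.3 in PS replicate 2, against 113 and 95.2 in RS. Catsper1, Catsper3 and Catsper4 were also higher in PS replicate 1 than in PS replicate 2, and the part of spermatids in the PS values was not tested.

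**Figure D3:**
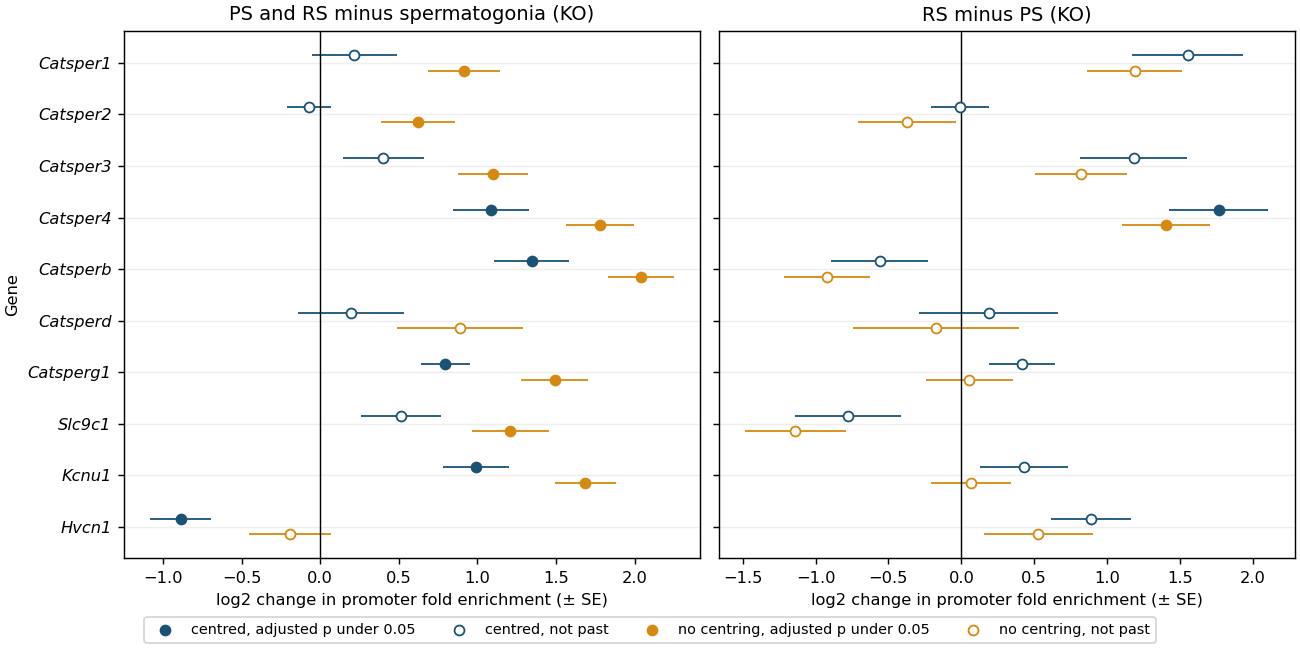
Log2 change in promoter fold enrichment (x axis, with SE) for the 10 genes in KO cells, from spermatogonia to PS and RS (left) and from PS to RS (right), in the centred fit (blue) and without centring (orange); filled points have an adjusted p under 0.05. In the left panel the points without centring lie to the right of the centred ones for every gene, and in the right panel Catsper4 is the filled one.

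The genotype was compared in spermatogonia. Of 11874 promoters 0 differed between KO and WT (0%) at an adjusted p under 0.05 in limma, and 472 did at an unadjusted p under 0.05. Only Catsper2, Catsperd and Hvcn1 were called in enough spermatogonial libraries to be tested, with log2 changes of 0.08, -0.26 and -0.32. That of Catsperd was 0.16 without Thy1+ KO replicate 2 and -0.59 without Thy1+ KO replicate 1. A difference of the genotype effect between Thy1+ and c-Kit+ cells passed for 0 of the 11874 (458 at an unadjusted p under 0.05, limma interaction term). Between c-Kit+ and Thy1+ spermatogonia 208 promoters (1.75%) differed, 164 (1.38%) of them higher in c-Kit+ cells, and none of the 3 genes passed. At their listed starts the other 7 genes had at most 1 marked spermatogonial promoter among 8 libraries of either genotype.

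Peaks away from the promoters fell into 61 separate regions, 43 of them found in adult libraries alone, 9 in spermatogonial libraries alone and 9 in both. Over the same regions of all genes 67.3% were found in adult libraries alone, so the share among the channel genes was near that of all genes. Catsper1 had the strongest, a stretch at chr19:5339341-5343463 over exons and introns that begins 3600 bp into the gene. It was called in all 4 adult libraries and in no spermatogonial library. In RS replicate 1 it was 1 peak of 4123 bp at 13.7, above the 9.39 of the promoter, and in RS replicate 2 it was in pieces of up to 10.3. In PS it reached 6.10 in replicate 1 and 3.73 in replicate 2, so that RS was above PS here too. Catsperb had a region 234489 bp upstream, at chr12:101169307-101170184, called in all 4 adult libraries at up to 9.15 and 11.2 in PS and at 4.30 and 4.33 in RS, so that PS was above RS as at the promoter. The tables assign it to Catsperb by position, and no contact between them was measured.

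Catsperg1 had an intron region at chr7:29211288-29212737, beginning 1296 bp into the gene, that was marked in 7 of the 8 spermatogonial libraries, at 4.66 to 9.11, while its promoter was marked in 1. In PS and in RS replicate 1 the promoter peak itself ran 2686 to 3255 bp into the gene and took in nearly all of this stretch, and in RS replicate 2 the region had a peak of its own at 7.03. A second RefSeq start of Catsperg1, at 29210925, lies within 1 kb of the peaks of this region in those 7 spermatogonial libraries. At that start Catsperg1 was thus not particular to adult cells. Hvcn1 had 13 regions, mostly in introns, with 18 spermatogonial and 11 adult peaks between 3.05 and 5.83. The most shared of them, chr5:122232090-122233244, was called in 4 spermatogonial libraries and in PS replicate 2. Kcnu1 had a region at chr8:25910106-25910909 in all 4 adult libraries, at 3.52 to 4.87, and Catsper2 had one 1318 bp into the gene in all 4, at 4.33 to 6.48. Slc9c1 had no peak beyond its promoter.

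**Figure D4:**
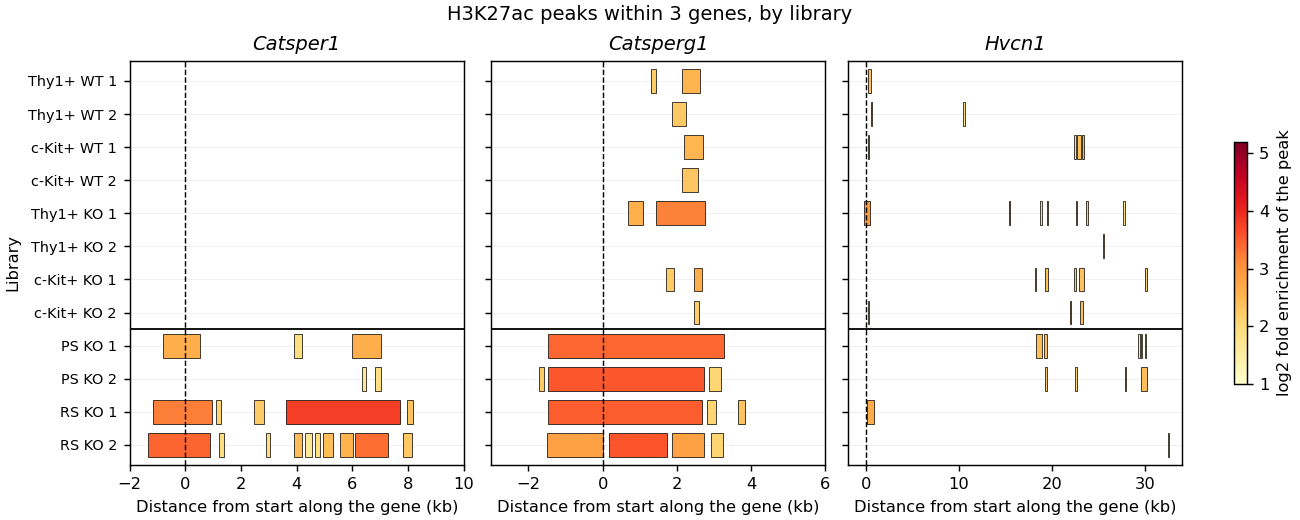
Peaks listed under Catsper1, Catsperg1 and Hvcn1 by distance from the start along the gene (kb) in each of the 12 H3K27ac libraries; colour gives the log2 fold enrichment of the peak's highest summit. Catsper1 has a long stretch of peaks from 3600 bp on in RS, Catsperg1 an intron region in 7 spermatogonial libraries, and Hvcn1 scattered short peaks up to 5.83 beyond its promoter.

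Of 30 other genes of sperm channels and capacitation, the maturation that readies sperm to fertilize, 22 had a start listed alone, 21 were called in some library and Trpv6 in none. Of the 22, 11 were marked in all 4 adult libraries and in no spermatogonial one, where the share over all genes was 5.82%. From spermatogonia to adult cells 10 of 20 tested rose and 1 fell, with a median of 0.66 against -0.11 over all promoters. The 5 with the largest changes were unmarked in all spermatogonial libraries. Their spermatogonial values in limma were thus the libraries' lowest. The sizes and adjusted p below rest on that setting and are not measured folds. Als2cr11 rose by 1.43 (adjusted p = 0.00083) and Tex40, which encodes CATSPERZ, by 1.29 (adjusted p = 0.0015). Cftr, a chloride and bicarbonate channel gene, rose by 1.34 (adjusted p = 0.0040), Adcy10, the soluble adenylyl cyclase, by 1.27 (adjusted p = 0.0016), and Akap4, a scaffold of the fibrous sheath, by 1.17 (adjusted p = 0.0021). The gene that fell was Slc9b2, marked at 5.57 and 4.73 in 2 KO spermatogonial libraries and in no adult one, and so, like Hvcn1, near the lowest level called. Cftr, like Catsper4, had both RS values above both PS values, at 13.7 and 6.93 in PS and 24.6 and 18.9 in RS. Tex40, like Catsperb, had them below, at 16.4 and 22.4 in PS and 11.3 and 9.20 in RS. From c-Kit+ KO cells to PS 5 of the 20 rose and 1 fell, and from PS to RS 0 of the 20 passed in limma, with 6 at an unadjusted p under 0.05. In spermatogonia 0 of 8 tested passed for KO against WT (0 at an unadjusted p under 0.05) and 0 of 8 for c-Kit+ against Thy1+ (2 at an unadjusted p under 0.05) in limma.

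Kcnu1 lay closest to the median profile of the 10 genes over the 12 libraries, at a distance of 0.179 (Euclidean, log2 fold enrichment), and Catsper2 farthest, at 6.94. The 5 other promoters nearest to that median profile were those of Nkx6-2 (0.268), Gm4871 (0.283), 4931440F15Rik (0.285), Prss43 (0.337) and Mfsd6l (0.342). All 5 were unmarked in spermatogonia, and Nkx6-2 stood at 9.53 and 12.8 in PS and 9.00 and 11.4 in RS.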

How the data were processed

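The genes and lists were chosen with earlier results of these data known. The rule for named genes took all 10 genes, the 5 other channel genes with the largest change past the threshold, and the 5 promoters nearest to the median profile. Reads were handled with Bowtie and MACS2 on mm10, per the submitters' processing notes; versions and settings are not given in the sources used here. The authors called peaks in each library. Per the file headers, each deposited summit has a signal height, a fold enrichment ratio, and −log10 p and −log10 q values. The fold enrichment equalled (height + 1) over (background + 1), with 1 background per library and no input control. Read depth is unknown. Mitochondrial peaks were left out. Some peaks are listed under several genes, so starts were taken only where listed under 1 symbol. Promoters called in at least 2 libraries of a fit entered limma 3.58.1 (R 4.3.3) on log2 fold enrichment, with Benjamini-Hochberg adjustment over all promoters tested. The 8 spermatogonial libraries formed 1 fit (genotype and stage) and the 8 KO libraries another. The scripts were tested on simulated data. Tables were made with Python 3.11.15. The labels do not say that replicates came from separate animals, so p-values measure the spread between these libraries. Alternatives included stricter peaks, equal peak numbers, other scalings and leaving out each library; no centring, 1 common lowest value, peaks listed under the gene alone and only summits within the window were added after seeing the data.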

Additional observations from a re-analysis of the deposited data

How the results depend on the processing

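After centring, the lowest value given to uncalled promoters lay between -1.22 and -2.77 in the KO libraries and was on average lower in adult cells, so promoters marked in adult cells alone are understated and promoters uncalled everywhere count as lower there. The rise of Catsperb from spermatogonia to adult cells passed in 18 of 18 alternatives, that of Catsper4 in 17 of 18, Catsperg1 in 16, Kcnu1 in 15, and the fall of Hvcn1 in 14 of 17. All 5 kept their direction in each fit that left out 1 library. For Hvcn1 these repeats are no measure of robustness. In the KO libraries its only values above a library's lowest were 7.59 in Thy1+ KO replicate 1 and 6.26 in RS replicate 1. Its passes therefore largely repeat the difference between the libraries' lowest values.

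For KO against WT, 1 promoter was called with the highest summit within the window and 1 without centring. The count for c-Kit+ against Thy1+ (208) became 97 with promoters called in every library, 50 with stricter peaks (−log10 q of at least 5), 56 with the highest summit within the window, 76 with peaks listed under the gene alone, 7 without centring, 24 with 1 common lowest value, and 17 to 220 with 1 library left out. The count for PS against c-Kit+ (3577) became 2193 in promoters called in every library, 9138 without centring, 1648 with 1 common lowest value, and 808 to 4629 with 1 library left out. The count for RS against PS (429) became 172 in promoters called in every library, 1185 with quantile normalization, 907 with the same number of strongest peaks (17877), 201 with the highest summit within the window, and 0 to 1482 with 1 library left out; it was 0 without PS replicate 2 (1393 at an unadjusted p under 0.05) and without RS replicate 1 (1703), and 14 without RS replicate 2. With the replicate block the counts were 346 for c-Kit+ against Thy1+ and 896 for RS against PS, and Catsper1 passed from PS to RS (adjusted p = 0.042) and Slc9c1 from spermatogonia to adult cells (adjusted p = 0.0496). Pairs with the same number had correlated deviations of 0.0914 to 0.190 in spermatogonia and -0.0997 to 0.381 in KO cells, and the labels do not say that a number marks a shared batch.

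The number of channel genes marked in all 4 adult libraries (8) became 5 with the same number of strongest peaks, 5 with the highest summit within the window and 5 with peaks listed under the gene alone, which also took the marked promoters summed over libraries from 58 to 32. Stricter peaks left 87 of the 206 peaks. Without centring, Catsper2 changed by 1.06 (adjusted p = 0.015) and Catsper4 by 1.14 (adjusted p = 0.0066) from c-Kit+ to PS, and Catsper2 by 0.62 (adjusted p = 0.040) from spermatogonia to adult cells. With only summits within the window Catsperd changed by 0.89 (adjusted p = 0.025) from c-Kit+ to PS. With the highest summit within the window Catsperd changed by -0.94 (adjusted p = 0.0079) and Catsperg1 by -0.13 from spermatogonia to adult cells. Catsperg1 changed by -1.47 (adjusted p = 0.026) from PS to RS. The highest Catsperd summits in all 4 adult libraries lay 1182 to 1683 bp from its start. They were therefore set at the lowest value, and this fall is no measure of the mark at the start. Catsperd passed as higher in adult cells with only summits within the window. The highest Catsperg1 summits in RS lay 2209 and 1016 bp from its start, so RS was at the lowest value too. With peaks listed under the gene alone Kcnu1 changed by -0.23 from spermatogonia to adult cells. Its RS promoter peaks were all shared with Ash2l, so RS was at the lowest value here too. Apart from the construction of each alternative, the cause was not tested. Without Thy1+ KO replicate 1, Catsperd passed as higher in adult cells and in c-Kit+ cells.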
